A study of Rattus norvegicus with 16 samples.

Results

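The cell cycle, replication and mitosis genes examined here are a named list of 44 of the 31038 genes in the deposited tables. They were sorted by role into 8 G1 cyclins and their kinases, 4 CDK inhibitors, 12 replication genes and 20 mitotic genes. The 16 libraries, 2 for each of 8 groups, hold RNA of Schwann cells isolated from rat sciatic nerve by immunopanning, or RNA of the whole nerve. In each tissue the groups were uncrushed nerves and nerves taken 3, 5 and 7 days post-crush, from rats whose labelled age is postnatal day 18. The left nerve was crushed with forceps at that age, uncrushed rats had no sham operation, and only the segment distal to the crush, or its equivalent in uncrushed nerves, was collected. The labels give the same age to all groups without saying whether it is the age at collection, so time since crush and any difference in age at collection cannot be told apart. Immunopanning removes cells that bind dishes coated with antibodies to CD45 and Thy1 and then keeps cells that bind O4, after digestion and dissociation of the nerve, whereas whole nerve RNA was taken without dissociation. Each Schwann cell library came from a pool of at least 10 nerves. Nothing in the labels says whether the libraries of a group came from separate litters or days, so the p-values measure the spread between these libraries, which may be technical.

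D-type cyclins activate the kinases CDK4 and CDK6 early in G1, and cyclin E with CDK2 acts at the entry into S phase. The inhibitors p21, p27 and p57, encoded by Cdkn1a, Cdkn1b and Cdkn1c, bind cyclin-CDK complexes, while p18, encoded by Cdkn2c, binds CDK4 and CDK6. Release of E2F factors from Rb proteins turns on genes for DNA synthesis, and a later set of genes for the spindle and chromosome segregation is turned on in G2 and M phase. Schwann cells of a mature nerve are mostly quiescent and re-enter the cell cycle in the distal nerve after axons degenerate, at a time when macrophages also enter the nerve and fibroblasts divide.

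Levels are given as normalised FPKM, which is the deposited FPKM, a level per gene length, rescaled between libraries by the TMM factors of the fit of all 16 libraries. Differences are log2 fold changes ± SE from the quasi-likelihood test of edgeR on rounded expected counts, with Benjamini-Hochberg adjustment over all genes tested, and a gene was called at an adjusted p below 0.05. All 44 genes passed the filter on low counts in each fit, which tested 14961 genes in Schwann cells, 15831 in whole nerve and 16829 in both together. Expected counts summed to between 10555067 and 27562637 per library. With 2 libraries a group, an exact two-sided permutation test of a single gene cannot give a p below 0.333. In bulk RNA, more dividing cells and more RNA per dividing cell cannot be told apart.

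The 9 macrophage markers summed to 4.84 to 6.40 normalised FPKM in uncrushed Schwann cells, 2.94 to 15.1 on day 3, 3.26 to 9.57 on day 5 and 5.42 to 5.75 on day 7. In whole nerve the same sum was 170.0 to 193 in uncrushed nerves and 599.9 to 606 on day 3. The 6 fibroblast markers summed to 316 to 320.5 in uncrushed Schwann cells and to between 149.5 and 238 after crush, beside 4991 to 5192 in whole nerve on day 3. The 3 pericyte markers (Rgs5, Acta2, Pdgfrb) summed to 34.4 to 45.3 in uncrushed Schwann cells, 6.69 to 16.2 on day 3, 10.4 to 11.7 on day 5 and 13.2 to 14.9 on day 7. The 3 perineurial markers (Cldn1, Slc2a1, Msln) summed to 19.8 to 19.99 in uncrushed Schwann cells. After crush their sum was 12.01 to 17.9 on day 3, 11.9 to 13.01 on day 5 and 13.2 to 15.3 on day 7. The fibroblast, pericyte and perineurial sums were thus lower in all 6 crushed Schwann cell libraries. Their part in the levels of the cell cycle genes was not tested. The 4 endothelial markers summed to 0.391 to 0.637 in uncrushed Schwann cells and 0.564 to 3.41 on day 3. On days 5 and 7 they summed to 0.492 to 0.744 and 0.218 to 0.225. In whole nerve on day 3 their sum was 88.8 to 89.7. In uncrushed Schwann cells Cx3cr1 and C1qa of the macrophage markers and Pecam1 of the endothelial markers were at or below 3 counts in both libraries. The same held for Msln of the perineurial markers.

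In purified Schwann cells the list rose after crush, and on day 3 the genes that did not were all G1 cyclins, kinases of them or CDK inhibitors. On day 3, 36 of the 44 genes were higher than in uncrushed Schwann cells, against 26.9% of all genes tested, and 4 were lower, against 25.7%. On day 5, 35 were higher, against 29.0%, and 3 lower, against 25.6%. On day 7, 33 were higher, against 25.0%, and 3 lower, against 21.9%. The median log2 fold change of the 44 genes was 1.34, 1.25 and 0.86 on days 3, 5 and 7, beside a median of all genes tested of 0.0034, 0.06 and 0.06. The genes that fell on day 3 were Cdk6, Cdkn1a, Cdkn1b and Cdkn1c, and those that did not pass the test were Ccnd2, Ccnd3, Cdk2 and Cdkn2c. In 34 of the 44 genes all 6 crushed libraries lay above both uncrushed libraries, in 3 all 6 lay below, and in 7 the libraries overlapped. This order was not counted over all genes tested, so no background share stands beside it.

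**Figure D1:**
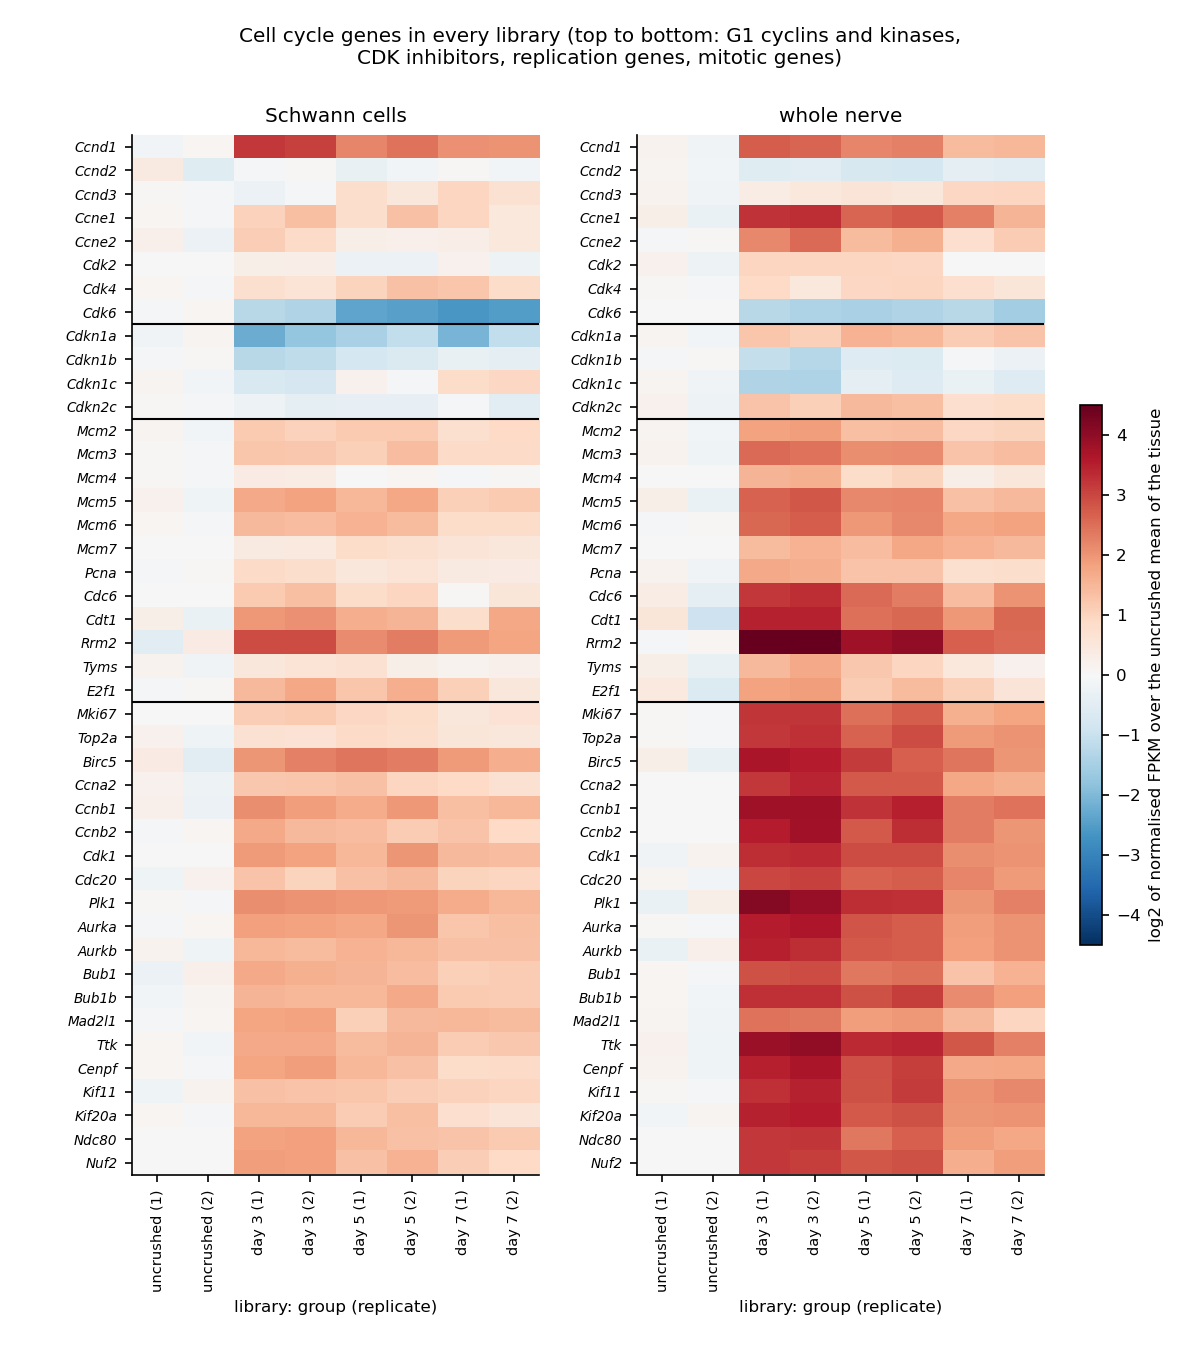
Each row is a gene and each column a library, Schwann cells on the left and whole nerve on the right, and the colour is the log2 ratio of normalised FPKM to the mean of the 2 uncrushed libraries of the same tissue. All 20 mitotic rows are red in all 6 crushed libraries of both tissues, Cdk6 and Cdkn1b are blue in both tissues, and Cdkn1a is blue in Schwann cells and red in whole nerve.

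Among the D-type cyclins of Schwann cells, Ccnd1 rose at all 3 times, Ccnd3 rose on days 5 and 7, and Ccnd2 did not pass the test. Ccnd1, which encodes cyclin D1, the partner of CDK4 and CDK6 that growth factors induce, stood at 35.9 and 41.6 normalised FPKM in the 2 uncrushed libraries, 351 and 329.6 on day 3, 177 and 209.8 on day 5 and 160.3 and 158 on day 7. The groups did not overlap, and day 3 held the highest libraries. Its log2 fold change was 3.17 ± 0.12 on day 3 (edgeR adjusted p = 7.77e-08), 2.34 ± 0.12 on day 5 (adjusted p = 4.70e-07) and 2.06 ± 0.12 on day 7 (adjusted p = 1.39e-06), the largest rise of the 44 genes on day 3.

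Ccnd3, which encodes cyclin D3, stood at 23 and 21.6 in uncrushed libraries, 18.5 and 21.1 on day 3, 38.6 and 31.6 on day 5 and 43.8 and 35.8 on day 7. Both day 3 libraries lay below both uncrushed ones, and all 4 later libraries lay above them. Its log2 fold change was -0.13 ± 0.14 on day 3 (edgeR adjusted p = 0.464), 0.68 ± 0.14 on day 5 (adjusted p = 0.00288) and 0.86 ± 0.14 on day 7 (adjusted p = 9.41e-04). Ccnd2, the gene of cyclin D2, stood between 2.60 and 4.94 normalised FPKM in the 8 Schwann cell libraries, and these extremes were the uncrushed pair. Its log2 fold changes of 0.02 ± 0.30, -0.22 ± 0.30 and -0.01 ± 0.30 on days 3, 5 and 7 did not pass the test (edgeR adjusted p = 0.967, 0.55 and 0.98), and their sign changed with the normalization or the library left out.

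The 2 D cyclin kinases moved in opposite directions. Cdk4 stood at 77.6 and 69.8 in uncrushed Schwann cells and 121 and 114 on day 3, with log2 fold changes of 0.70 ± 0.15, 1.17 ± 0.15 and 1.06 ± 0.15 on days 3, 5 and 7 that were all called. Cdk6 stood at 81.3 and 92.98 in uncrushed libraries, 36.3 and 34.2 on day 3, 16.8 and 16.2 on day 5 and 14.1 and 15.4 on day 7. Both day 3 libraries lay below the uncrushed ones, and no library of day 5 or 7 reached a day 3 library. The log2 fold change of Cdk6 was -1.27 ± 0.10 (edgeR adjusted p = 6.94e-06), -2.38 ± 0.11 (adjusted p = 2.38e-07) and -2.54 ± 0.11 (adjusted p = 2.97e-07). Ccne1, a cyclin of the G1/S transition, rose on day 3 by 1.22 ± 0.35 and on day 5 by 1.08 ± 0.36, from 0.83 and 0.732 in uncrushed libraries to 1.58 and 1.98 on day 3. Its relative Ccne2 rose on day 3, by 1.00 ± 0.17, and did not pass the test on days 5 and 7. Cdk2, the kinase of both cyclins, did not pass the test at any day, with log2 fold changes of 0.32 ± 0.17, -0.23 ± 0.17 and -0.0008 ± 0.17.

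**Figure D2:**
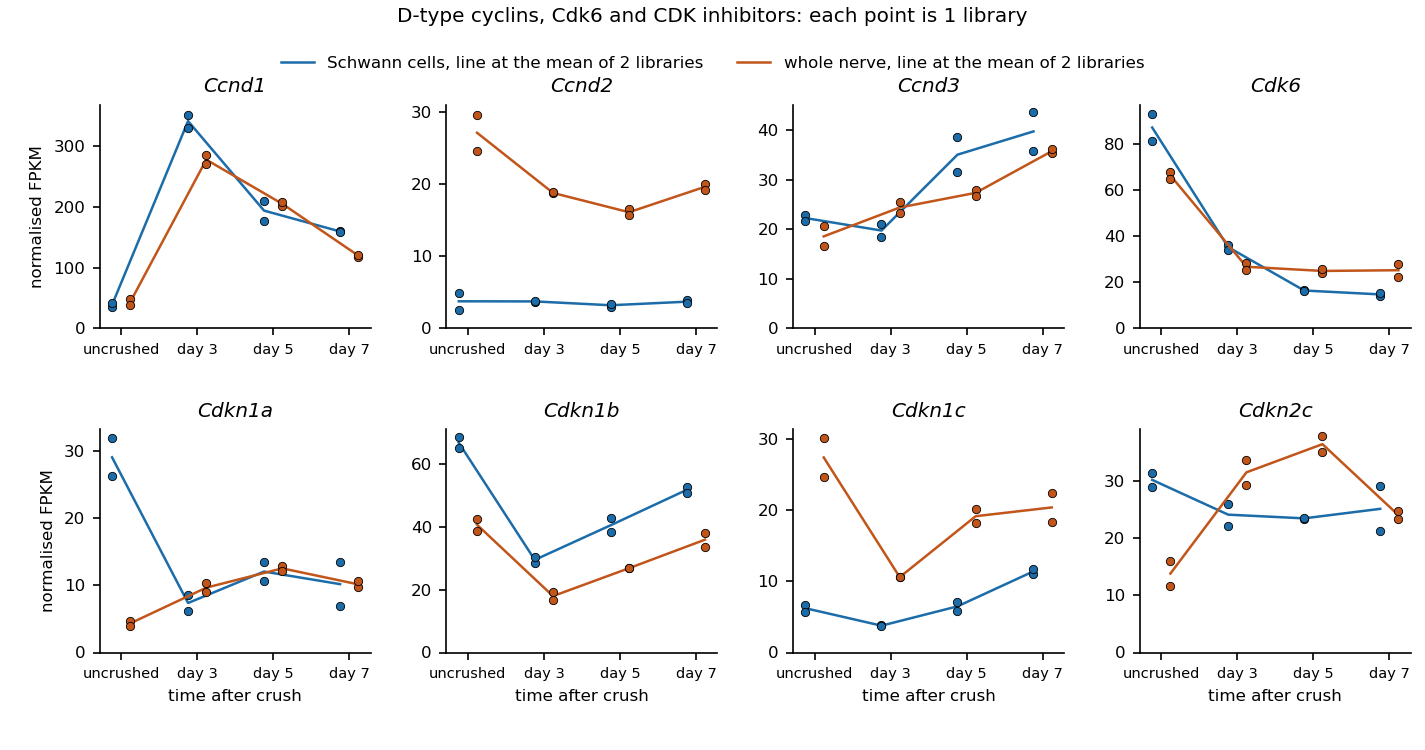
Normalised FPKM of 8 G1 regulators in each library, with time after crush on the horizontal axis. Points are single libraries and lines join the means of 2 libraries, in blue for Schwann cells and orange for whole nerve. Cdkn1a falls in Schwann cells from 26.2 and 31.8 and rises in whole nerve from 4.69 and 3.97, and Ccnd2 lies lower in blue than in orange in all groups.

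Of the 4 CDK inhibitors, 3 fell in Schwann cells on day 3, against 25.7% of all genes tested, and 2 on day 5, against 25.6%. Cdkn1a, the gene of p21 and a target of p53, stood at 26.2 and 31.8 in uncrushed Schwann cells, 6.12 and 8.59 on day 3, 10.6 and 13.4 on day 5 and 6.85 and 13.5 on day 7. All 6 crushed libraries lay below both uncrushed ones, and the 2 libraries of day 7 differed from each other more than those of day 3 or 5. Its log2 fold change was -1.93 ± 0.29 (edgeR adjusted p = 3.79e-04), -1.25 ± 0.28 (adjusted p = 0.00422) and -1.50 ± 0.29 (adjusted p = 0.00212) on days 3, 5 and 7. Cdkn1b, the gene of p27, which holds quiescent cells out of the cycle, stood at 65.2 and 68.7, then 28.5 and 30.6, 38.3 and 42.9 and 52.97 and 50.9. The groups of Cdkn1b did not overlap, and the later groups stood progressively nearer to uncrushed. Its log2 fold change was -1.17 ± 0.09 on day 3 (edgeR adjusted p = 5.61e-06), -0.72 ± 0.09 on day 5 and -0.31 ± 0.09 on day 7 (adjusted p = 0.0191). The call on day 7 was lost without either day 7 library, with values of -0.31 and -0.30, and without the filter on low counts.

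Cdkn1c, the gene of p57, stood at 6.69 and 5.74 in uncrushed libraries, 3.82 and 3.71 on day 3, 7.13 and 5.83 on day 5 and 11.1 and 11.8 on day 7. It fell on day 3 and stood above uncrushed on day 7, where it was the 1 inhibitor that rose. The log2 fold change was -0.70 ± 0.17 on day 3 (edgeR adjusted p = 0.00568), 0.08 ± 0.16 on day 5 (adjusted p = 0.712) and 0.89 ± 0.16 on day 7 (adjusted p = 0.00149). Cdkn2c, the gene of p18, stood at 31.4 and 28.9, then 25.97 and 22.1, 23.3 and 23.5 and 28.99 and 21.1. Its log2 fold changes of -0.30 ± 0.15, -0.35 ± 0.15 and -0.25 ± 0.15 did not pass the test (edgeR adjusted p = 0.124, 0.0774 and 0.215).

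All 12 replication genes rose in Schwann cells on day 3, against 26.9% of all genes tested, with a median log2 fold change of 1.30. On day 5, 11 rose, against 29.0%, and on day 7, 9 rose, against 25.0%, with medians of 1.24 and 0.84. Rrm2, the small subunit of ribonucleotide reductase, which makes deoxyribonucleotides in S phase, rose most, from 13.1 and 23.6 in uncrushed libraries to 139.9 and 142 on day 3, 79.6 and 90.9 on day 5 and 68.95 and 62.4 on day 7. Its uncrushed libraries differed from each other by more, relative to their mean, than those of any later group, and all 6 crushed libraries lay above both. The log2 fold change was 2.97 ± 0.23 (edgeR adjusted p = 4.31e-06), 2.24 ± 0.22 (adjusted p = 2.83e-05) and 1.86 ± 0.22 (adjusted p = 1.19e-04). Pcna, the sliding clamp of the DNA polymerases, stood at 117 and 128, then 222 and 214, 174 and 189 and 162 and 158, and so had the highest level of the replication genes both before and after crush. Its rise was smaller, with log2 fold changes of 0.86 ± 0.10, 0.58 ± 0.10 and 0.40 ± 0.10 (edgeR adjusted p = 5.40e-05, 7.41e-04 and 0.00698).

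The 6 subunits of the MCM2-7 helicase, which opens the double helix ahead of the replication fork, rose by unequal amounts on day 3. The log2 fold change was 1.79 ± 0.16 for Mcm5, 1.45 ± 0.12 for Mcm6, 1.26 ± 0.14 for Mcm3 and 1.13 ± 0.13 for Mcm2, and 0.43 ± 0.11 for Mcm7 and 0.41 ± 0.10 for Mcm4. Mcm2 stood at 5.18 and 4.33 in uncrushed libraries, 10.7 and 9.69 on day 3, 10.8 and 10.8 on day 5 and 7.93 and 8.94 on day 7, with no overlap of crushed and uncrushed (edgeR adjusted p = 7.94e-05, 5.68e-05 and 7.33e-04). Mcm4 stood at 24.1 and 22.2, 29.9 and 29.3, 23.5 and 24.7 and 22.02 and 23.8 and had the smallest rise of the group. On day 3 Mcm4 was called at an edgeR adjusted p of 0.0058, which was lost without replicate 1 of day 3, at a value of 0.365, and on days 5 and 7 it overlapped uncrushed, with log2 fold changes of 0.10 ± 0.10 (adjusted p = 0.404) and 0.02 ± 0.10 (adjusted p = 0.871).

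Cdc6 and Cdt1 load the helicase onto origins. On day 3 the log2 fold change was 1.34 ± 0.23 for Cdc6 and 2.02 ± 0.31 for Cdt1, and on day 7 Cdc6 did not pass the test at 0.38 ± 0.24. Tyms, which makes thymidylate, rose by 0.63 ± 0.18 on day 3 and did not pass the test on day 7. E2f1, a transcription factor of S phase genes, stood at 1.93 and 2.08, then 5.52 and 6.71, 4.71 and 6.25 and 4.21 and 2.82. All its crushed libraries lay above the uncrushed ones, and its log2 fold changes of 1.65 ± 0.23, 1.47 ± 0.24 and 0.84 ± 0.24 were called (edgeR adjusted p = 2.71e-04, 5.97e-04 and 0.0164). The day 7 call of E2f1 was lost without replicate 1 of day 7, at a value of 0.532, and without replicate 1 of uncrushed, at 0.797.

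Promoter windows were searched for letters of the E2F motif, since E2F factors turn on S phase genes. RefSeq windows of assembly GRCr8, from 250 bases before to 50 bases after the start of a gene, were held for 33 of the 44 genes and for 27457 genes in all. They were searched on both strands for the E2F letters TTTCGCGC, TTTGGCGC, TTTCCCGC and TTTGCCGC, which can overlap each other on opposite strands. A match lay in 7 of 8 windows of replication genes (87.5%), in 1 of 18 windows of mitotic genes (5.56%), in 0 of 4 of G1 cyclins and their kinases and 0 of 3 of CDK inhibitors, and in 2.2% of all windows. The window without a match was that of Pcna. The bases before the start are shown for Mcm5 and Mcm6, the replication genes with the largest day 3 change among those with a match before the start, from 20 bases before the first match to the start, on the strand of the gene. Capitals mark the E2F letters and CCAAT, or ATTGG where CCAAT lies on the other strand.
Mcm5 (chr19:13488580-13488812, plus strand): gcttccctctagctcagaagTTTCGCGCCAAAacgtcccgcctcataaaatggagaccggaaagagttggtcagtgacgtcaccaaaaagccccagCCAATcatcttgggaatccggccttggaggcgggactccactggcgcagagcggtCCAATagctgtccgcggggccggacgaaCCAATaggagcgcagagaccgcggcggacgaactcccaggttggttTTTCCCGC
Mcm6 (chr13:42404353-42404511, minus strand): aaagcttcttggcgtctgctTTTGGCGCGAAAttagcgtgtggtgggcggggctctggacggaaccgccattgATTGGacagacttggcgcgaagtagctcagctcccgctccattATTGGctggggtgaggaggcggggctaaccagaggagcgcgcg
In Mcm5, an E2F match lay 213 to 206 bases before the start, overlapping another on the other strand at 209 to 202, and a further match ended at the last base before the start. CCAAT lay at 137 to 133, 82 to 78 and 54 to 50 bases before it. In Mcm6, a pair of overlapping matches lay between 139 and 128 bases before the start, with ATTGG at 86 to 82 and 43 to 39. These matches describe the letters of the window and were not measured as binding.

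All 20 mitotic genes rose in Schwann cells on days 3, 5 and 7, against 26.9%, 29.0% and 25.0% of all genes tested. In each of the 20 all 6 crushed libraries lay above both uncrushed ones, an order that was not counted over all genes. The median log2 fold change was 1.71, 1.46 and 1.16. Summed over the 20 genes, the level was 233 to 243 normalised FPKM in uncrushed libraries, 652 to 660.0 on day 3, 574 to 578 on day 5 and 457 to 471 on day 7. The log2 fold change ran from 0.71 for Top2a to 2.13 for Birc5 on day 3.

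Mki67, the gene of the Ki-67 protein that coats mitotic chromosomes and marks cycling cells, stood at 37.8 and 37.05 in uncrushed Schwann cells, 80.9 and 85.4 on day 3, 70.9 and 65.7 on day 5 and 53.01 and 58.7 on day 7. Its libraries formed 4 groups that did not overlap, with day 3 highest. The log2 fold change was 1.19 ± 0.10 (edgeR adjusted p = 7.59e-06), 0.89 ± 0.10 (adjusted p = 5.46e-05) and 0.60 ± 0.10 (adjusted p = 8.58e-04). Top2a, which untangles DNA before chromosomes separate, stood at 44.01 and 33.9, then 63.4 and 61.2, 70.8 and 66.7 and 56.2 and 55.3. It was highest on day 5, and its log2 fold changes of 0.71 ± 0.12, 0.84 ± 0.12 and 0.54 ± 0.12 were the smallest of the 20 at each day (edgeR adjusted p = 8.68e-04, 3.04e-04 and 0.0052). Without replicate 2 of uncrushed, its day 7 value was 0.342 and stayed called.

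Birc5, the gene of survivin, a subunit of the chromosomal passenger complex, stood at 1.89 and 1.03, then 5.84 and 6.99, 7.71 and 7.16 and 5.46 and 4.56. It had the lowest mean of the 20 in uncrushed cells and the largest rise of them at each day, by 2.13 ± 0.33, 2.32 ± 0.33 and 1.76 ± 0.34 (edgeR adjusted p = 4.50e-04, 2.68e-04 and 0.00207). Cdk1, the kinase that drives mitosis, stood at 16 and 15.8, then 59.5 and 55.4, 44.8 and 62.8 and 43.7 and 41.4, with log2 fold changes of 1.89 ± 0.15, 1.77 ± 0.15 and 1.44 ± 0.16 (edgeR adjusted p = 6.75e-06, 1.17e-05 and 6.41e-05). Its partners rose too, and the day 3 log2 fold change was 2.02 ± 0.17 for Ccnb1, 1.62 ± 0.18 for Ccnb2 and 1.18 ± 0.16 for Ccna2. Of the mitotic kinases, it was 2.09 ± 0.14 for Plk1, 1.82 ± 0.20 for Aurka and 1.48 ± 0.14 for Aurkb. The kinases and partners of the spindle checkpoint, which delays separation until every chromosome is attached, gave 1.69 ± 0.15 for Bub1, 1.54 ± 0.13 for Bub1b, 1.87 ± 0.15 for Mad2l1 and 1.73 ± 0.11 for Ttk, beside 1.18 ± 0.18 for Cdc20, the activator that the checkpoint holds. The kinetochore genes Ndc80 and Nuf2 gave 1.84 ± 0.11 and 1.89 ± 0.12, the centromere gene Cenpf 1.85 ± 0.11, and the spindle motors Kif11 and Kif20a 1.33 ± 0.13 and 1.53 ± 0.12.

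The mitotic windows were searched in the same way for CHR letters, the element at which the DREAM and MuvB complexes control G2 and M phase genes. The letters TTTGAA or TTCGAA, on either strand, lay in 13 of 18 windows of mitotic genes (72.2%), 2 of 8 of replication genes (25%), 0 of 4 of G1 cyclins and their kinases and 0 of 3 of CDK inhibitors, and in 19.6% of all windows. CCAAT, the letters of the factor NF-Y, lay on either strand in 12 of 18 windows of mitotic genes (66.7%), 5 of 8 of replication genes (62.5%), 2 of 4 of G1 cyclins and their kinases (50%) and 1 of 3 of CDK inhibitors (33.3%), and in 37.7% of all windows. Before the start alone, CHR letters lay in 7 of 18 windows of mitotic genes (38.9%) and 17.3% of all. The bases before the start of Birc5 and Cdk1, the mitotic genes with the largest day 3 change among those with CHR letters before the start, are shown in the same manner, with capitals for CHR, CCAAT or ATTGG and E2F letters.
Birc5 (chr10:103571913-103572145, plus strand): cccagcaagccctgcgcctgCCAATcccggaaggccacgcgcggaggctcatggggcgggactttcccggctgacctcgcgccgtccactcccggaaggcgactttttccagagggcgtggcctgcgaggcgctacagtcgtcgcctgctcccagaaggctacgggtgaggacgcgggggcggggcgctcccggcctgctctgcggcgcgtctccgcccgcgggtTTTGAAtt
Cdk1 (chr20:19265063-19265292, plus strand): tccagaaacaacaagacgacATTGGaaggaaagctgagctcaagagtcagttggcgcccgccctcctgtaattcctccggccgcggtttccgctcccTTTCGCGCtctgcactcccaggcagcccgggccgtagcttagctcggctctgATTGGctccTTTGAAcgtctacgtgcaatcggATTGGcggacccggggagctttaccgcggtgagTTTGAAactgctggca
In Birc5 the CHR letters ended 3 bases before the start, and CCAAT lay 213 to 209 bases before it. In Cdk1 a CHR match lay 72 to 67 bases before the start, between ATTGG at 81 to 77 and ATTGG at 49 to 45, with a further ATTGG at 210 to 206, a further CHR match lay 16 to 11 bases before the start, and the E2F letters lay at 133 to 126. Like those of Mcm5 and Mcm6, these are matches of letters, not measured sites.

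Between the days after crush, Ccnd3, Cdkn1b and Cdkn1c rose in Schwann cells and a part of the replication and mitotic genes fell. Over days 3 to 5, 3 genes rose, against 6.09% of all genes tested, and 7 fell, against 6.36%. From day 5 to day 7, 1 rose, against 1.18%, and 3 fell, against 0.769%. From day 3 to day 7, 3 rose, against 10.2%, and 19 fell, against 10.7%. The genes that rose from day 3 to day 7 were Ccnd3, by 0.99 ± 0.14, Cdkn1b, by 0.86 ± 0.09, and Cdkn1c, by 1.59 ± 0.16. Those that fell were 9 of the 20 mitotic genes, 7 of the 12 replication genes and 3 of the 8 G1 cyclins and kinases, with log2 changes of -1.11 ± 0.21 for Rrm2, -1.11 ± 0.11 for Ccnd1 and -1.27 ± 0.11 for Cdk6. The highest group mean after crush was that of day 3 in 28 genes, of day 5 in 12 and of day 7 in 4. The day of the highest mean was not counted over all genes. The 3 comparisons share their libraries and are not independent.

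These counts between days rest on few libraries. From day 3 to day 5 the 10 calls became 2 without replicate 1 of day 3, 4 without replicate 2 of day 3, 2 without replicate 1 of day 5 and 5 without replicate 2 of day 5. From day 5 to day 7 the 4 calls, Cdkn1c, Cenpf, Kif20a and Mcm6, became 0 without any 1 of the 4 libraries. From day 3 to day 7 the 22 calls became 12 and 11 without replicate 1 or 2 of day 3 and 13 without replicate 1 of day 7.

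**Figure D3:**
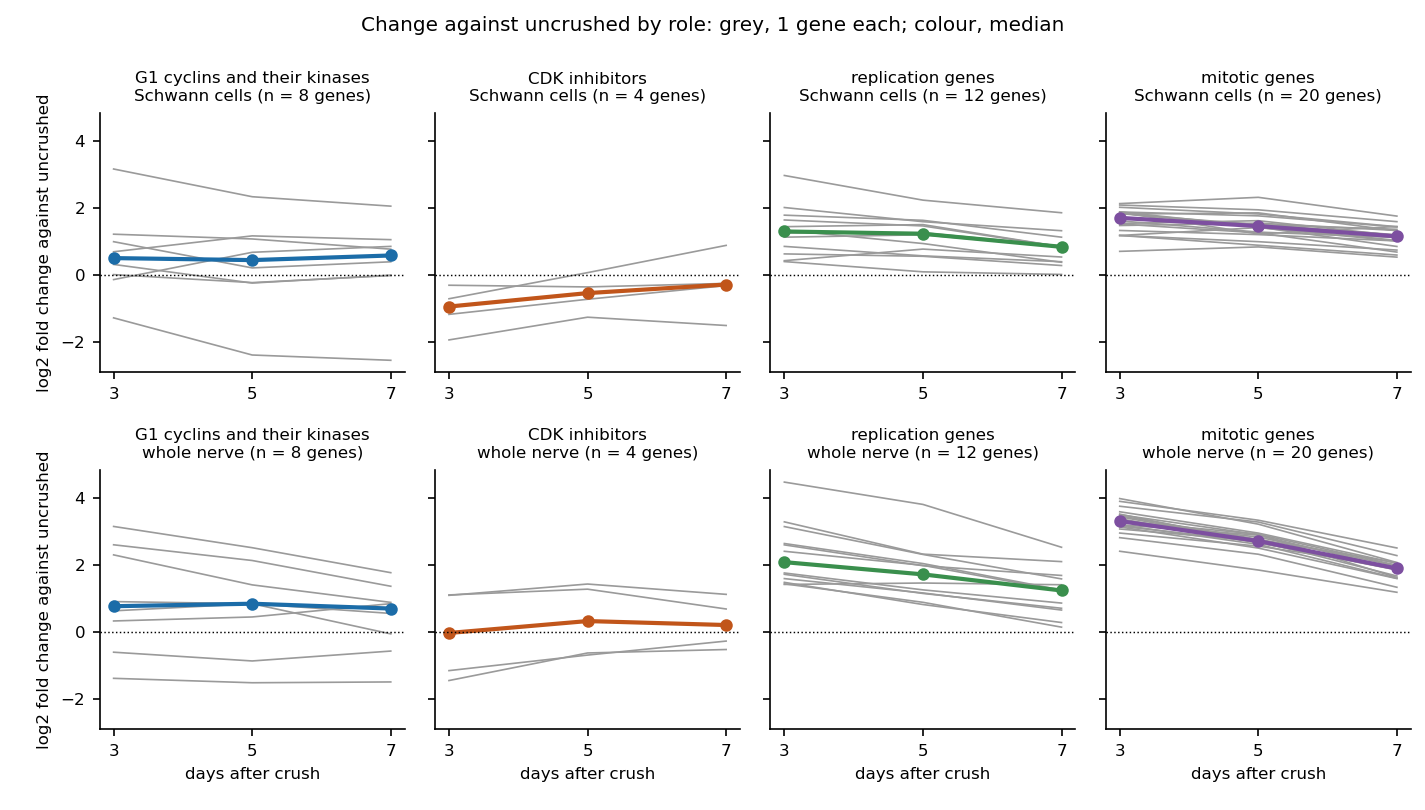
Log2 fold change against uncrushed at 3, 5 and 7 days after crush, in panels by role, Schwann cells above and whole nerve below. Grey lines are single genes and the coloured line is their median. The median of the mitotic genes goes from 1.71 to 1.16 in Schwann cells and from 3.31 to 1.90 in whole nerve.

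In whole nerve all 44 genes were called on days 3 and 5. Only the 17 genes with full statistics were followed singly with a library left out. Of these, Ccnd3 lost its calls on both days when single libraries were left out. E2f1 lost its call on day 5 without replicate 2 of that day, at a value of 1.014. On day 3, 40 genes were higher than in uncrushed nerve, against 23.1% of all genes tested, and 4 lower, against 22.5%. On day 5, 40 were higher, against 18.9%, and 4 lower, against 19.5%. On day 7, 36 were higher, against 15.4%, and 3 lower, against 15.9%. Of the lower genes, Ccnd2 and Cdkn1c lost their day 7 calls without replicate 1 of uncrushed, at values of -0.423 and -0.368. The genes that fell on days 3 and 5 were Ccnd2, Cdk6, Cdkn1b and Cdkn1c. The median log2 fold change was 3.31, 2.72 and 1.90 for the mitotic genes and 2.09, 1.72 and 1.24 for the replication genes, beside 0.0029, -0.0086 and 0.02 for all genes tested.

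Rrm2 rose most of the 44 genes, from 6.01 and 6.64 in uncrushed nerves to 149 and 145 on day 3, 88.1 and 102 on day 5 and 40.5 and 37.4 on day 7, a log2 fold change of 4.47 ± 0.12 on day 3 (edgeR adjusted p = 2.78e-09). Mki67 stood at 7.62 and 6.96, then 67.1 and 67.5, 40.3 and 48.3 and 22.1 and 24.96, with log2 fold changes of 3.14 ± 0.12, 2.51 ± 0.11 and 1.60 ± 0.11. Top2a stood at 9.17 and 8.61, then 80.1 and 86.98, 56.4 and 67.3 and 33.8 and 36.5, with log2 fold changes of 3.16 ± 0.12, 2.70 ± 0.11 and 1.89 ± 0.11. In these 3 genes day 3 was the highest group and day 7 the lowest after crush, with no overlap of groups. Cdkn1a stood at 4.69 and 3.97, then 10.3 and 9.004, 12.9 and 12.1 and 9.68 and 10.6, and rose by 1.10 ± 0.16, 1.43 ± 0.16 and 1.13 ± 0.16 (edgeR adjusted p = 2.34e-04, 4.80e-05 and 3.65e-04). Cdkn2c stood at 15.9 and 11.7, then 33.6 and 29.2, 37.7 and 35.01 and 23.3 and 24.6, and rose by 1.11 ± 0.14, 1.28 ± 0.14 and 0.69 ± 0.15. Both inhibitors thus had all 6 crushed libraries above the uncrushed ones in whole nerve, where Cdkn1b and Cdkn1c fell by 1.15 ± 0.11 and 1.45 ± 0.14 on day 3. Ccnd1 rose from 47.97 and 38.9 to 284 and 269.5 on day 3, by 2.60 ± 0.11, and Ccnd2 fell from 29.6 and 24.6 to 18.7 and 18.9, by 0.60 ± 0.12. Ccnd3 rose by 0.33 ± 0.12 on day 3, a call lost without either day 3 library or without replicate 2 of the uncrushed nerves, with values of 0.196 to 0.415, or with DESeq2, and by 0.85 ± 0.12 on day 7. Without replicate 1 of uncrushed the day 3 value of Ccnd3 was 0.513 and was called. On day 5 Ccnd3 rose by 0.45 ± 0.12, a call lost without replicate 1 of day 5, at 0.439, and without replicate 2 of uncrushed, at 0.315. E2f1 rose by 1.72 ± 0.28 on day 3 and 1.15 ± 0.28 on day 5, where the value was 1.80 without replicate 1 of uncrushed and the call was lost without replicate 2 of day 5.

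Between the days after crush, more genes of the list fell than rose in whole nerve. Over days 3 to 5, 2 genes rose, against 5.68% of all genes tested, and 23 fell, against 5.87%. From day 5 to day 7, 1 rose, against 3.65%, and 28 fell, against 3.75%. From day 3 to day 7, 3 rose, against 9.85%, and 35 fell, against 11.4%, and the latter held all 20 mitotic genes, 11 of the 12 replication genes and 4 G1 cyclins and kinases. Ccnd3, Cdkn1b and Cdkn1c, the genes that rose from day 3 to day 7 in Schwann cells, were those that rose in whole nerve, by 0.52 ± 0.11, 0.88 ± 0.11 and 0.93 ± 0.14. From day 3 to day 5 the 25 calls became 11 and 6 without replicate 1 or 2 of day 3 and 6 and 14 without replicate 1 or 2 of day 5. From day 5 to day 7 the 29 calls became 17 and 15 without replicate 1 or 2 of day 5 and 17 without replicate 1 of day 7.

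Before crush, most of the list stood higher in purified Schwann cells. In uncrushed nerves, 34 genes were higher in Schwann cells, against 29.1% of all genes tested, and 2 lower, against 35.3%. On day 3, 5 were higher, against 24.5%, and 15 lower, against 32.8%. On day 5, 11 were higher, against 23.2%, and 5 lower, against 28.4%. On day 7, 26 were higher, against 22.4%, and 3 lower, against 28.7%. The median log2 difference, Schwann cells over whole nerve, was 1.09 in uncrushed nerves and -0.18, 0.14 and 0.50 on days 3, 5 and 7, beside -0.10, -0.11, -0.03 and -0.03 for all genes tested. Among these 16 libraries, those of Schwann cells alone went through dissociation and immunopanning, so tissue and handling cannot be told apart. With upper quartile normalization, which shifted the median gene of this contrast by 0.0937 (day 3), 0.137 (day 5) and 0.103 (day 7), the 20 calls on day 3 became 13. Those calls on day 3 became 12 and 9 without replicate 1 or 2 of Schwann cells on day 3 and 11 without either whole nerve library of that day, and the 16 calls on day 5 became 7 without replicate 1 of whole nerve on day 5.

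In uncrushed nerves Mki67 stood at 37.8 and 37.05 in Schwann cells and 7.62 and 6.96 in whole nerve, a log2 difference of 2.36 ± 0.11 (edgeR adjusted p = 4.85e-10), and Top2a differed by 2.13 ± 0.13 (adjusted p = 4.71e-09). The largest excess in Schwann cells was that of Cdkn1a, 26.2 and 31.8 against 4.69 and 3.97, or 2.74 ± 0.27 (edgeR adjusted p = 7.81e-07), and after crush its differences of -0.39 ± 0.25, -0.07 ± 0.24 and -0.0037 ± 0.25 on days 3, 5 and 7 did not pass the test. Both a proliferation marker and an inhibitor were thus higher in the uncrushed Schwann cell libraries. Ccnd2 and Cdkn1c went the other way in all 4 groups. The log2 difference of Ccnd2 was -2.83 ± 0.21 in uncrushed nerves and -2.33 ± 0.20, -2.33 ± 0.21 and -2.40 ± 0.21 on days 3, 5 and 7. That of Cdkn1c was -2.13 ± 0.15, -1.50 ± 0.15, -1.56 ± 0.15 and -0.84 ± 0.14 in the same order (edgeR adjusted p at most 2.01e-04). Ccnd1 did not pass the test in uncrushed nerves, at -0.17 ± 0.12, and Cdkn1b was higher in Schwann cells in all 4 groups, by 0.60 ± 0.09 on day 7 to 0.76 ± 0.10 in uncrushed nerves.

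The effect of injury itself differed between Schwann cells and whole nerve for most of the list, as tested by the interaction of tissue and day in the fit of all 16 libraries. On day 3 it was smaller or more negative in Schwann cells for 35 genes, against 13.7% of all genes tested, and greater for 2, against 12.3%. On day 5 the counts were 32, against 14.9%, and 0, against 12.6%. On day 7 they were 21, against 14.4%, and 2, against 11.6%. All 20 mitotic genes were among those of day 3, with a median difference of -1.85, and 10 of the 12 replication genes, with a median of -1.14, beside -0.04 for all genes tested. On day 3 the log2 difference was -2.05 ± 0.15 for Mki67 (edgeR adjusted p = 2.98e-07), -2.56 ± 0.17 for Top2a (adjusted p = 1.54e-07), -1.60 ± 0.28 for Rrm2 (adjusted p = 5.99e-04) and -1.50 ± 0.21 for Cdk1 (adjusted p = 1.07e-04). Each of these rose in both tissues, and the uncrushed libraries of Schwann cells and of whole nerve enter every such difference.

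Cdkn1a had the largest difference and the only one with opposite calls in the 2 tissues on day 3, at -3.13 ± 0.37, -2.81 ± 0.37 and -2.74 ± 0.37 on days 3, 5 and 7 (edgeR adjusted p = 2.33e-05, 6.07e-05 and 9.06e-05). Cdkn2c differed by -1.51 ± 0.23 on day 3 (edgeR adjusted p = 2.03e-04), while Cdkn1b differed by -0.12 ± 0.14 and did not pass the test (adjusted p = 0.553). Cdkn1c, which on day 7 was called higher in Schwann cells and lower in whole nerve, differed by 1.29 ± 0.21 then (edgeR adjusted p = 3.79e-04). Its call in whole nerve on day 7 was lost without replicate 2 of day 7, at a value of -0.380, and without replicate 1 of uncrushed, at -0.368. For Cdk6 the difference on day 3 was 0.0024 ± 0.16 (edgeR adjusted p = 0.9999), and on day 7 it was -1.17 ± 0.16 (adjusted p = 1.05e-04). Some calls on day 3 lay near the threshold. Ccnd1 at 0.46 ± 0.16, Ccnd3 at -0.57 ± 0.20, Cdkn1c at 0.64 ± 0.21 and Birc5 at -1.44 ± 0.50 lost their calls when single libraries were left out. The values without a call were 0.321 to 0.504 for Ccnd1, -0.663 to -0.405 for Ccnd3, 0.51 to 0.661 for Cdkn1c and -1.787 to -0.917 for Birc5, where -0.917 was the value without replicate 1 of uncrushed Schwann cells. With DESeq2 the calls of Ccnd3, Cdkn1c and Birc5 were lost as well.

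**Figure D4:**
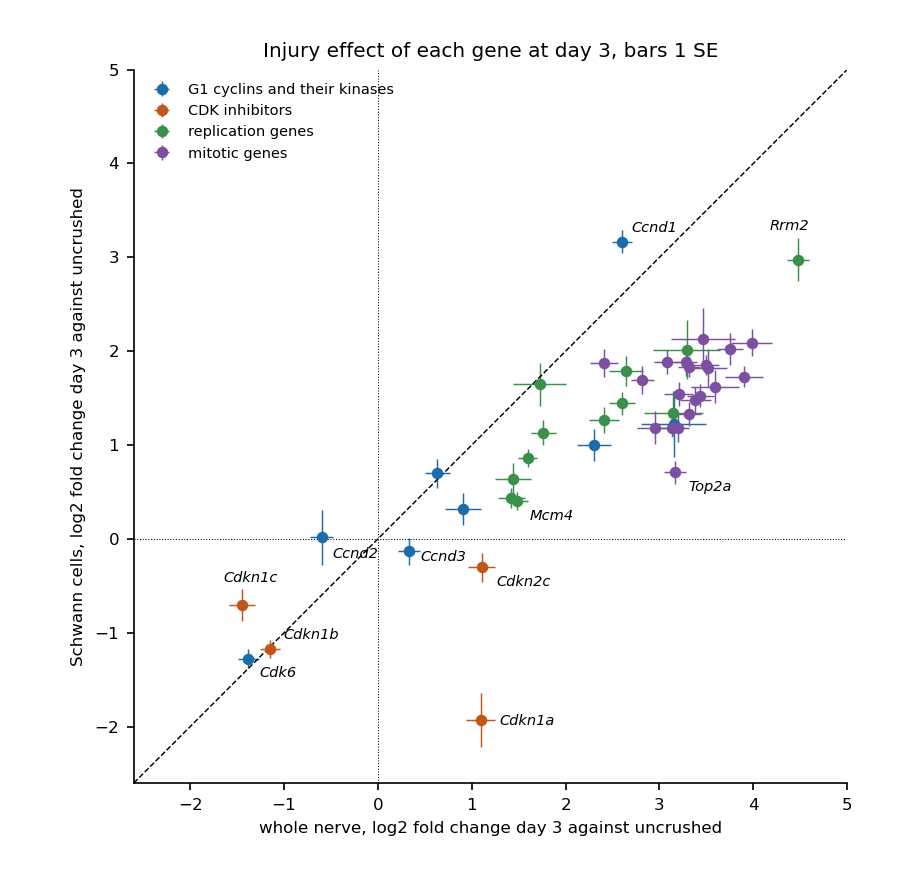
Each point is a gene, with its log2 fold change on day 3 against uncrushed in whole nerve on the horizontal axis and in Schwann cells on the vertical axis, and bars of 1 SE. The dashed line marks equal change. All 20 mitotic genes lie below the line, Ccnd1 lies above it, and Cdkn1a lies at 1.10 in whole nerve and -1.93 in Schwann cells.

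Markers of other cells were counted in both tissues. All 9 macrophage markers rose in whole nerve on day 3, against 23.1% of all genes tested, with a median log2 fold change of 1.72, and their sum fell from 599.9 to 606 normalised FPKM on day 3 to 356 to 397 on day 5 and 384 to 394 on day 7. In Schwann cells 1 of the 6 macrophage markers tested rose on day 3, against 26.9%. Of the 6 fibroblast markers, 3 rose and 2 fell in whole nerve on day 3, against 23.1% and 22.5%, and 1 rose and 1 fell in Schwann cells, against 26.9% and 25.7%. Of the 3 pericyte markers, 1 fell in Schwann cells on each of days 3, 5 and 7, against 25.7%, 25.6% and 21.9%. The part of these cells in the levels of the cell cycle genes was not tested.

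Further genes of the pathway, taken from lists of 26 replication, 40 mitotic and 25 G1 and Rb-E2F genes, were counted in the same fits. Of the further replication genes, 21 of 26 rose in Schwann cells on day 3, against 26.9% of all genes tested, and 16 on day 7, against 25.0%. The day 3 values ran from -0.27 for Rfc3, which did not pass the test, to 2.06 for Gmnn, the gene of geminin, which blocks relicensing of origins. In whole nerve all 26 rose on day 3, against 23.1%, and Uhrf1, which helps copy DNA methylation, rose most, by 3.65. Of the further mitotic genes, 37 of 40 rose in Schwann cells on day 3, against the same 26.9%, with a median of 1.16, and 39 of 40 in whole nerve, against 23.1%, with a median of 3.04. The injury effect was smaller in Schwann cells for 37 of these 40 and for 19 of the 26 on day 3, against 13.7% of all genes tested. Of the G1 and Rb-E2F genes, 23 of 24 found were tested in Schwann cells, and 15 rose and 2 fell on day 3, against 26.9% and 25.7%. Cdkn2a was at or below 3 counts in every library of all 8 groups. Cdkn2b, the gene of the CDK4 and CDK6 inhibitor p15, rose in Schwann cells on day 5 by 2.06 and had a log2 difference of -4.64 between uncrushed Schwann cells and whole nerve.

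Other genes that p53 activates were counted in the same fits. Of 12 p53 target genes tested in Schwann cells, 4 rose and 3 fell on day 3, against 26.9% and 25.7% of all genes tested, from -3.60 for Btg2 to 3.30 for Gadd45a, with a median of 0.41. On day 5, 7 rose and 3 fell, against 29.0% and 25.6%, and on day 7, 6 rose and 3 fell, against 25.0% and 21.9%. In whole nerve 4 of 12 rose and 3 fell on day 3, against 23.1% and 22.5%, with a median of 0.08. There 5 rose and 2 fell on day 5, against 18.9% and 19.5%, and on day 7 2 rose, against 15.4%, while the other 10 did not pass the test, beside 15.9% of all genes that fell. No test of the list as a whole was made. Btg2, an antiproliferative gene, had a log2 difference of 4.63 between Schwann cells and whole nerve before crush, and its injury effects differed by -3.35 on day 3.

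A few members share reads with other genes. The expected counts of Ccne2, Rrm2, Ccna2, Ccnb2 and Kif20a were not whole numbers in all 16 libraries, which means that RSEM split reads between these genes and other transcripts, so their values are less certain. In assembly GRCr8 the spans of Ccne2, Cdk2, Cdk4, Rrm2, Plk1, Aurka, Kif11 and Kif20a overlap those of other protein-coding genes, and the library kit does not mark strand, so reads in the overlaps cannot be assigned by strand. No member was at or below 3 counts in every library of a group, and the lowest count of any member in a library was 4.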

How the data were processed

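RNA from 8 libraries of immunopanned rat Schwann cells and 8 of whole sciatic nerve had been amplified with a kit that marks neither strand nor molecules. Reads were mapped by the authors with STAR (build Rnor_6.0), RSEM estimated gene abundance, and they deposited expected counts and FPKM per gene and library. The labels put a version beside STAR that the methods give to another tool, so no versions are printed. Expected counts, once rounded, went into the quasi-likelihood F test of edgeR 4.0.16 (TMM, filterByExpr, R 4.3.3), in a fit of 8 libraries for each tissue and a fit of all 16 for comparisons between tissues, with Benjamini-Hochberg adjustment over all genes tested. A gene was called at an adjusted p below 0.05. Dividing the absolute log2 fold change by the root of its F statistic gave the SE. Levels are deposited FPKM rescaled by the TMM effective library sizes of the fit of all 16 libraries, and were handled in Python 3.11.15.

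The SE and p-values take in the spread between libraries as well as the sampling of reads, and reads without molecular identifiers are not independent molecules. A dissociated nerve preparation of the study was not analysed here. Alternatives were DESeq2 1.42.0, its size factors or upper quartile scaling within edgeR, no filter on low counts, a replicate block, the fit of all 16 libraries for single-tissue comparisons, and leaving out each library. The script for the fits was tested on simulated data with 200 genes changed on day 3. In Schwann cells edgeR recovered 108 of them, and 12 of its 120 calls were unchanged genes. In whole nerve it recovered 133, with 12 of 145 calls unchanged. For the interaction it recovered 88, with 6 of 94 calls unchanged. With DESeq2 the unchanged genes were 26 of 151, 11 of 144 and 12 of 113 calls in the same order. The 44 genes, their roles and the further lists were chosen with earlier results of these data known. Any of the 44 genes may be named, and full statistics were given to the regulators and markers set out for each role and to the genes with the largest and smallest day 3 change in each role. Of the further lists, the genes with the highest or lowest value were named. A deposited table of network modules with FPKM from Cufflinks was not used. Cdkn2d of the further lists was not found under that symbol and was not analysed here.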

Additional observations from a re-analysis of the deposited data

Results flagged for a closer look

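The injury effect, crushed over uncrushed, differed between Schwann cells and whole nerve in the interaction test of edgeR with Benjamini-Hochberg adjustment for 37 of the 44 genes on day 3, 32 on day 5 and 23 on day 7. Of all genes tested, 12.3% differed upward and 13.7% downward on day 3, 12.6% and 14.9% on day 5, and 11.6% and 14.4% on day 7. On the log2 scale, with Schwann cells minus whole nerve on day 3, the difference among G1 regulators was 0.46 for Ccnd1, -0.57 for Ccnd3, -3.13 for Cdkn1a, 0.64 for Cdkn1c and -1.51 for Cdkn2c. Among replication genes it was -0.73 for Mcm2, -1.18 for Mcm4, -0.84 for Pcna and -1.60 for Rrm2. Among mitotic genes it was -2.05 for Mki67, -2.56 for Top2a, -1.44 for Birc5 and -1.50 for Cdk1. Cdkn1a was the gene among these with calls in opposite directions on day 3. The macrophage markers that rose in whole nerve, and the dissociation and panning that among these 16 libraries were used for Schwann cells alone, accompany each of these differences, and their part was not tested.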

How the results depend on the processing

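Of 127 log2 fold changes of single genes followed through the alternatives, 109 were called, none of the called ones reversed under any alternative run, and 12 lost their call under at least 1. The 7 that reversed were not called. For Ccnd2 in Schwann cells on day 3 the value was -0.014 with DESeq2, -0.022 with its size factors, -0.066 with upper quartile scaling and -0.024 in the fit of all 16 libraries, and -0.396 to 0.561 with 1 library left out. With 1 library left out it was -0.627 to 0.323 on day 5 and -0.413 to 0.534 on day 7, and 0.004 on day 7 with the replicate block. Mcm4 on day 7 gave -0.028, -0.033, -0.009 and -0.002 under the same 4 alternatives and -0.054 to 0.090 with 1 library left out, and Cdkn1c on day 5 gave -0.070 to 0.223. The injury effect on day 3 differed by -0.085 to 0.099 for Cdk6 and by -0.799 to 0.216 for E2f1 with 1 library left out. The cause was not tested.

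Counts of called genes kept within 1.5 times their value under the other alternatives, with these exceptions. In Schwann cells from day 5 to day 7 the 4 calls became 8 without the filter on low counts and 2 with the replicate block. Between tissues on day 3 the 20 calls became 13 with upper quartile scaling. With 1 library left out, which leaves a lone library assumed to vary like the other groups, the counts were 2 to 5 in Schwann cells from day 3 to day 5, 0 from day 5 to day 7 and 11 to 17 from day 3 to day 7, 6 to 14 in whole nerve from day 3 to day 5 and 15 to 21 from day 5 to day 7, and 9 to 12 and 7 to 14 between tissues on days 3 and 5. The share of called genes that were higher was 71.3% with upper quartile scaling against 60.5% in Schwann cells from day 5 to day 7, and 60.8% in the fit of all 16 libraries against 49.3% in whole nerve on day 7. Replicate numbers were not taken as pairs, since the deviations of same-numbered libraries from their group means correlated at -0.0576 to 0.0838, and the replicate block changed no other count by over 1.5 times.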
